A study of Mus musculus with 6 samples.

Results

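Keratins, claudins and desmosome genes encode the filaments and junctions that hold epithelial cells together. They were followed here while mouse epiblast stem cells were turned towards neural plate. The members were all genes on the array with a RefSeq messenger RNA accession and a symbol of a keratin (Krt), claudin (Cldn), desmoglein (Dsg), desmocollin (Dsc), plakophilin (Pkp), Tjp or Marveld gene, together with Ocln, Dsp, Jup, F11r, Ppl and Evpl. This gave 127 probes of 108 genes, out of 20274 genes named on the array. They were 28 type I keratins, 24 type II keratins, 31 claudins, 8 other tight junction genes, 9 desmosomal cadherins and 8 desmosomal plaque genes.

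Epiblast stem cells (EpiSCs) are pluripotent cells with epithelial features that correspond to the epiblast of the implanted embryo. Cells of strain 129/Sv stayed under epiblastic maintenance (EpiSC) or spent 1 day (NPC1) or 2 days (NPC2) under conditions for neural plate development. Each of the 3 groups had 2 cultures, A and B, and all cultures came from 1 seed culture, so the p-values measure the spread between sister cultures. All groups are therefore cells of 1 origin in a dish, and no allele, transgene or other agent is named in the labels. Total RNA of each culture was measured on 1 Agilent 1-colour array.

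Keratins are intermediate filament proteins that assemble only as pairs of 1 type I and 1 type II chain. Krt8 and Krt18, with Krt19 and Krt7, are the pair and partners of simple epithelia, whereas Krt5 and Krt14 belong to the basal layer of stratified epithelia. Claudins and occludin span the membrane in tight junctions, where Tjp scaffold proteins hold them to actin. Desmosomal cadherins join neighbouring cells and are tied to the keratin filaments by the plaque proteins plakoglobin, plakophilin and desmoplakin. In the embryo, neural plate keeps an epithelial form while it loses E-cadherin for N-cadherin.

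Signal well above background was found on 58.2% to 61.1% of an array's gene spots, and saturation on 0. Levels are given as scaled intensity, the scanner's processed signal of a probe in arbitrary units after every array was brought to the same 75th percentile; they can be compared between arrays for 1 probe, not between probes. Changes are log2 differences with the standard error of limma's fit over all 14772 genes tested, and a call means a Benjamini-Hochberg adjusted p under 0.05 over those genes. Of the 108 members 55 were tested, because a probe stood well above background in both cultures of some group. Of these, 51 were well above background on all 6 arrays.

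The identity of the cultures was checked with marker genes. Of 7 epiblast genes 5 fell and 2 rose in NPC2 compared with EpiSC, against 40.7% and 28.3% of all genes. Pou5f1, which encodes a pluripotency factor, had scaled intensities of 29041 and 32410.2 in EpiSC, 17143 and 18394 in NPC1 and 4899 and 4809.6 in NPC2. All 8 neural plate markers rose, among them Sox1, an early neural transcription factor, at 48.2 and 44.3 in EpiSC, 315 and 308 in NPC1 and 2469.5 and 2407 in NPC2.

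After 2 days, 32 of the 55 tested members had fallen and 5 had risen compared with EpiSC, and 18 were not called. Of all genes tested, 40.7% were called lower and 28.3% higher in that comparison, 69% in either direction. Of the 55, 20 were called at least 2-fold lower, against a background of 10.2% of all genes, and 1 at least 2-fold higher, against 9.69%. The median log2 change of the 55 tested members was -0.49, and that of all genes tested was -0.10. A separate fit of the 13546 genes well above background on every array held 51 members, of which 32 were lower and 5 higher. That fit left out Krt20, a fall, and Cldn10, a rise, and newly called Marveld1 lower and Krt1 higher. In RNA from whole cultures, fewer cells with a transcript and less of it per cell cannot be told apart.

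After 1 day the picture was smaller and mixed. In NPC1, 16 members were lower and 9 higher than in EpiSC, and 30 were not called. This balance turned with the scaling of the arrays, with 22 lower and 7 higher when arrays were brought to a common median, but 9 lower and 11 higher with the authors' deposited value table. Without EpiSC culture B 7 were lower, without EpiSC culture A 9, and without NPC1 culture A 10. Of all genes 29% were lower, 21.3% higher and 50.3% either, so the members' share of calls lay near the background. At least 2-fold, 2 members were higher and 0 lower, against 4.43% and 3.9% of all genes. The same held over the whole array, where 57.7% of the genes called were lower, against 71.0% when arrays were brought to a common median and 37.9% with the authors' deposited value table. For NPC2 against EpiSC these shares were 59.0%, 65.6% and 38.8%. The median of all genes shifted with them, at -0.05, -0.15 and 0.07 for NPC1 and -0.10, -0.18 and 0.13 for NPC2, so that log2 changes of about that size have no settled sign.

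Between the days, 32 members were lower and 2 higher in NPC2 than in NPC1, against 26.6% and 20.8% of all genes and 47.5% in either direction. At least 2-fold, 19 were lower and 1 higher, against 6.17% and 4.73% of all genes. The 20 members that were at least 2-fold lower in NPC2 than in EpiSC had log2 differences of -0.996 to 0.74 for NPC1 minus EpiSC and of -3.21 to -0.76 for NPC2 minus NPC1. These comparisons share arrays, and their values are set side by side as description.

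**Figure D1:**
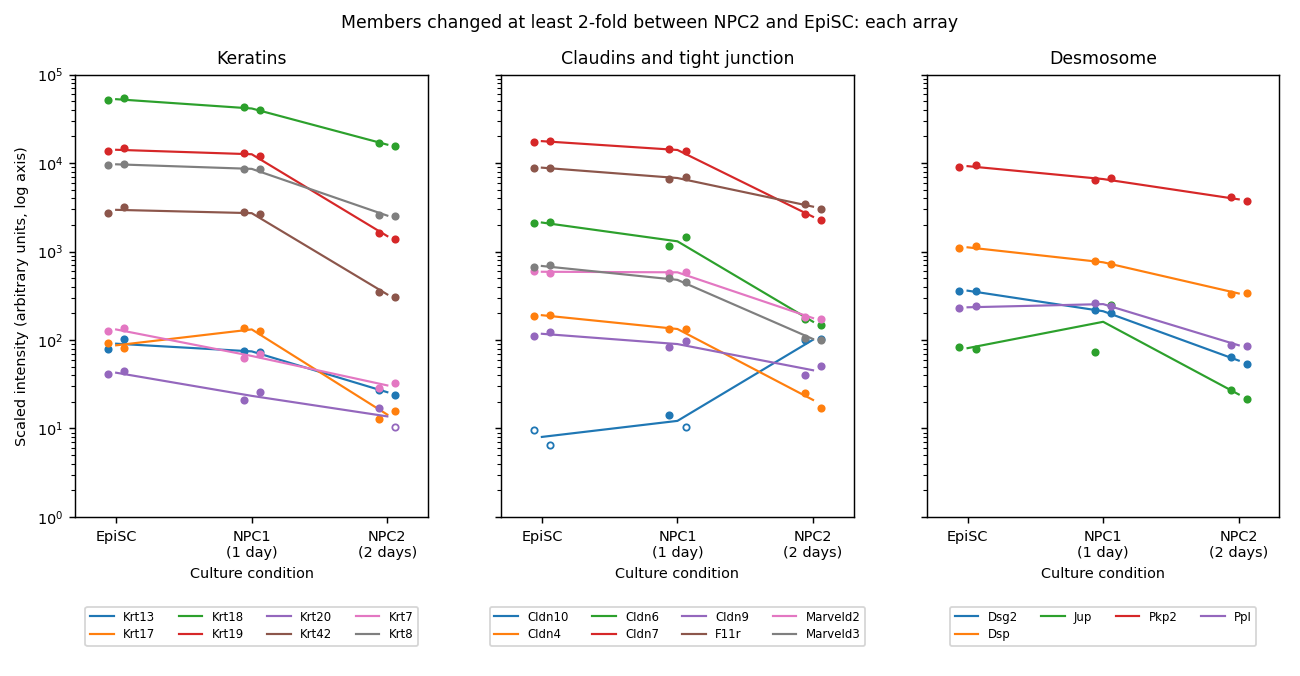
Scaled intensity (arbitrary units, log axis) on each of the 6 arrays for the 21 members called with at least a 2-fold change between NPC2 and EpiSC, in the order EpiSC, NPC1, NPC2. Points are single cultures (open where not well above background) and lines join group means. These members were drawn because of their call in this comparison, so the side on which they lie follows from that choice. Both NPC2 arrays lie below both EpiSC arrays for 20 members and above them for Cldn10.

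The regulatory sequence in front of the members that fell was read to see what they share beyond their names. Sequence was taken from RefSeq, assembly GRCm38.p6, which is a reference genome of another strain, and covers the 250 bases before each annotated start. A window was found for 70 of the 108 members, among them 13 of the 20 that were at least 2-fold lower in NPC2. The 4 windows printed belong to the simple epithelial keratin pair and to 2 of the claudins that fell. They were taken from windows that hold a match, so a match in each was fixed beforehand. Capitals mark CACCTG or its reverse complement CAGGTG, the core of the E-box that Snail and Zeb repressors are known to bind.
Krt8, chr15:102004343-102004592, minus strand: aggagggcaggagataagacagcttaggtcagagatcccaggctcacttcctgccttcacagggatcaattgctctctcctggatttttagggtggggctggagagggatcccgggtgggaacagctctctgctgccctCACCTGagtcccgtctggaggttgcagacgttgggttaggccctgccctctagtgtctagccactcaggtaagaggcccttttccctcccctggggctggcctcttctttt
Krt18, chr15:102027966-102028215, plus strand: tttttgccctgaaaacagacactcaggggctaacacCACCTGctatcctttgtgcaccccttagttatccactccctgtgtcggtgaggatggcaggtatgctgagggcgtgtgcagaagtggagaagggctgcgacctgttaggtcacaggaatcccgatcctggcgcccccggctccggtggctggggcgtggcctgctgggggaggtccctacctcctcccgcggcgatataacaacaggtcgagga
Cldn6, chr17:23679115-23679364, plus strand: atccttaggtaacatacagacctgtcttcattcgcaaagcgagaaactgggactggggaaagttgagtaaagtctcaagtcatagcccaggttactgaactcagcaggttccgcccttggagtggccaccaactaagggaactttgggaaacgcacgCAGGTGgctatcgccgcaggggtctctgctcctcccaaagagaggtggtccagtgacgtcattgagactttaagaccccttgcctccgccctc
Cldn7, chr11:69965171-69965420, plus strand: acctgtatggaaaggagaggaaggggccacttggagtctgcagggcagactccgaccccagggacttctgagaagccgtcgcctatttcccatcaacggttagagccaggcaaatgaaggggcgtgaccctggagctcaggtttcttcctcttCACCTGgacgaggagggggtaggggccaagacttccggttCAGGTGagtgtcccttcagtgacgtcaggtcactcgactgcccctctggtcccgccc
Krt8, Krt18 and Cldn6 hold 1 match each, 111, 214 and 93 bases before the start, and Cldn7 holds 2, at 97 and 57 bases.

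Matches were counted by gene, and a gene counted if any of its windows matched, with 32851 windows for 27025 genes. On either strand, CACCTG was found for 7 of the 13 members at least 2-fold lower in NPC2 that had a window (53.8%). It was found for 8 of 22 other tested members (36.4%), 8 of 35 members not tested (22.9%) and 19.4% of all 27025 genes. It was 1 of 18 strings counted on both strands, and it was picked out after the counts were seen. AGGTCA, a string known as an element for nuclear receptors, was as frequent, in 7 of the 13 (53.8%) against 3 of 22 (13.6%), 2 of 35 (5.71%) and 15.8%. The other 16 were CACCTGC, which overlaps CACCTG, the grainyhead-like strings AACCGGTT and ACCGGTT with the variants AACAGGTT and ACCTGTT, the Zeb string CAGGTA, the TATA box TATAAA, the Sp1 box GGGCGG, the Klf strings GGGTGTGG and CACACCC, the TEAD string CATTCC, the AP-1 site TGACTCA, the AP-2 sites GCCTGAGGC and GCCNNNGGC, the p63 motif and the octamer ATTTGCAT. They were found for 0 to 8 of the 13 members, most often GGGCGG, for 8 (61.5%). GGGCGG was found for 8 of 22 other tested members (36.4%), 4 of 35 not tested (11.4%) and 35.4% of all genes. Of all tested genes, 60.9% held GGGCGG, 19.6% CACCTG and 13.4% AGGTCA. A match is a run of letters and shows neither binding nor a cause.

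The keratins of simple epithelia fell together after 2 days. Krt18 had scaled intensities of 51056 and 54215 in EpiSC, 43060.1 and 39619 in NPC1 and 16825 and 15432 in NPC2. Its type II partner Krt8 had 9621 and 9721 in EpiSC, 8608 and 8567 in NPC1 and 2594 and 2493 in NPC2. Both duplicates of NPC2 lay far below those of the other groups for both genes, and the log2 changes in NPC2 compared with EpiSC were -1.71 ± 0.07 (adjusted p = 5.15e-05) for Krt18 and -1.93 ± 0.05 (adjusted p = 1.24e-05) for Krt8. After 1 day the changes were -0.35 ± 0.07 and -0.17 ± 0.05 (adjusted p = 0.016 and 0.0307). The day 1 call of Krt18 ended under 4 of 16 alternatives, without EpiSC culture B or NPC1 culture B among them. That of Krt8 ended under 11, including each array left out.

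Krt19, a type I keratin of simple epithelia that can also pair with Krt8, had 13518 and 14709 in EpiSC, 13020.3 and 12105 in NPC1 and 1606 and 1379 in NPC2. The NPC1 arrays lay just below those of EpiSC, at -0.17 ± 0.10 (adjusted p = 0.207), while NPC2 was far below both, at -3.24 ± 0.10 (adjusted p = 1.87e-05) against EpiSC. Krt7, a type II keratin of ducts and glands, fell on each day, with 127 and 136 in EpiSC, 62.9 and 69.1 in NPC1 and 28.6 and 32.8 in NPC2. Its log2 change was -0.996 ± 0.09 in NPC1 and -2.10 ± 0.09 in NPC2 compared with EpiSC (adjusted p = 0.00141 and 5.47e-05), and the 3 groups did not overlap. Krt20, known from gut and urothelium, was dim, at 41.1 and 44.3 in EpiSC, 21.2 and 25.6 in NPC1 and 16.9 and 10.5 in NPC2, and well above background on 1 of 2 NPC2 arrays. It fell by NPC2, with -1.68 ± 0.24 (adjusted p = 0.00261). Its day 1 change of -0.87 ± 0.24 (adjusted p = 0.0356) lost the call under 8 of 15 alternatives, including any 1 EpiSC or NPC1 array left out.

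Several type I keratins known from other epithelia also fell. Krt42, once called K17n for its likeness to Krt17, had 2758 and 3156 in EpiSC, 2773 and 2652 in NPC1 and 346 and 308 in NPC2, a change in NPC2 of -3.18 ± 0.09 (adjusted p = 1.87e-05) and in NPC1 of -0.12 ± 0.09 (adjusted p = 0.329). Krt17, a keratin of skin appendages and of injured epidermis, took another course, with 92.6 and 81.5 in EpiSC, 136 and 127 in NPC1 and 12.9 and 15.8 in NPC2. It was above EpiSC on both arrays of NPC1, at 0.60 ± 0.12 (adjusted p = 0.0142), and below both groups in NPC2, at -2.61 ± 0.12 (adjusted p = 6.53e-05) against EpiSC and -3.21 ± 0.12 (adjusted p = 0.000107) against NPC1. The NPC1 rise lost its call without EpiSC culture B or without NPC1 culture A. Krt13, a keratin of wet stratified epithelia, had 79.6 and 102 in EpiSC, 74.9 and 73.8 in NPC1 and 27.4 and 24.0 in NPC2 and a change in NPC2 of -1.81 ± 0.14 (adjusted p = 0.000273). Another Krt13 probe, not tested, was well above background on no array.

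On the probes tested, the basal keratins Krt14 and Krt5 gave dim signals that stayed well above background on all arrays. A second Krt5 probe, not tested, was well above background on the NPC1 B array alone. Krt14 had 42.8 and 31.8 in EpiSC, 58.8 and 58.4 in NPC1 and 43.0 and 38.7 in NPC2, which was 0.67 ± 0.15 (adjusted p = 0.0193) in NPC1 and 0.14 ± 0.15 (adjusted p = 0.432) in NPC2 compared with EpiSC. The NPC1 rise was lost when either NPC1 culture was left out. Krt5, the type II partner of Krt14, had 23.3 and 21.3 in EpiSC, 15.1 and 22.1 in NPC1 and 14.6 and 15.4 in NPC2. Its NPC2 change of -0.57 ± 0.19 (adjusted p = 0.0437) ended as a call under 10 of 16 alternatives. Krt90, a type II keratin, was highest in NPC1, at 21.2 and 29.9 in EpiSC, 71.3 and 81.5 in NPC1 and 28.4 and 32.1 in NPC2. The log2 change was 1.60 ± 0.18 (adjusted p = 0.00247) in NPC1 and 0.27 ± 0.18 (adjusted p = 0.25) in NPC2 compared with EpiSC, and -1.33 ± 0.18 (adjusted p = 0.00399) in NPC2 compared with NPC1.

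Across the 12 tested type I keratins, 8 were lower and 1 higher in NPC2 than in EpiSC, with a median log2 change of -1.11. The 12 tested type II keratins were split, with 5 lower, 1 higher and a median of 0.00. The shares lower were 66.7% for type I and 41.7% for type II, the second near the 40.7% of all genes. In NPC1 the counts were 2 lower and 3 higher for type I and 4 lower and 2 higher for type II, so that 16.7% and 33.3% were lower, against 29% of all genes. Krt1, a type II keratin of the upper epidermis, was singled out after its values were seen. It had 29.2 and 21.6 in EpiSC, 53.4 and 55.6 in NPC1 and 273 and 48.2 in NPC2, so that the A culture of NPC2 alone was high and the change against EpiSC was not called, at 2.19 ± 0.81 (adjusted p = 0.0619). Without that array the change was 0.94 (adjusted p = 0.0204), and without the B culture 3.44 (adjusted p = 0.000854).

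**Figure D2:**
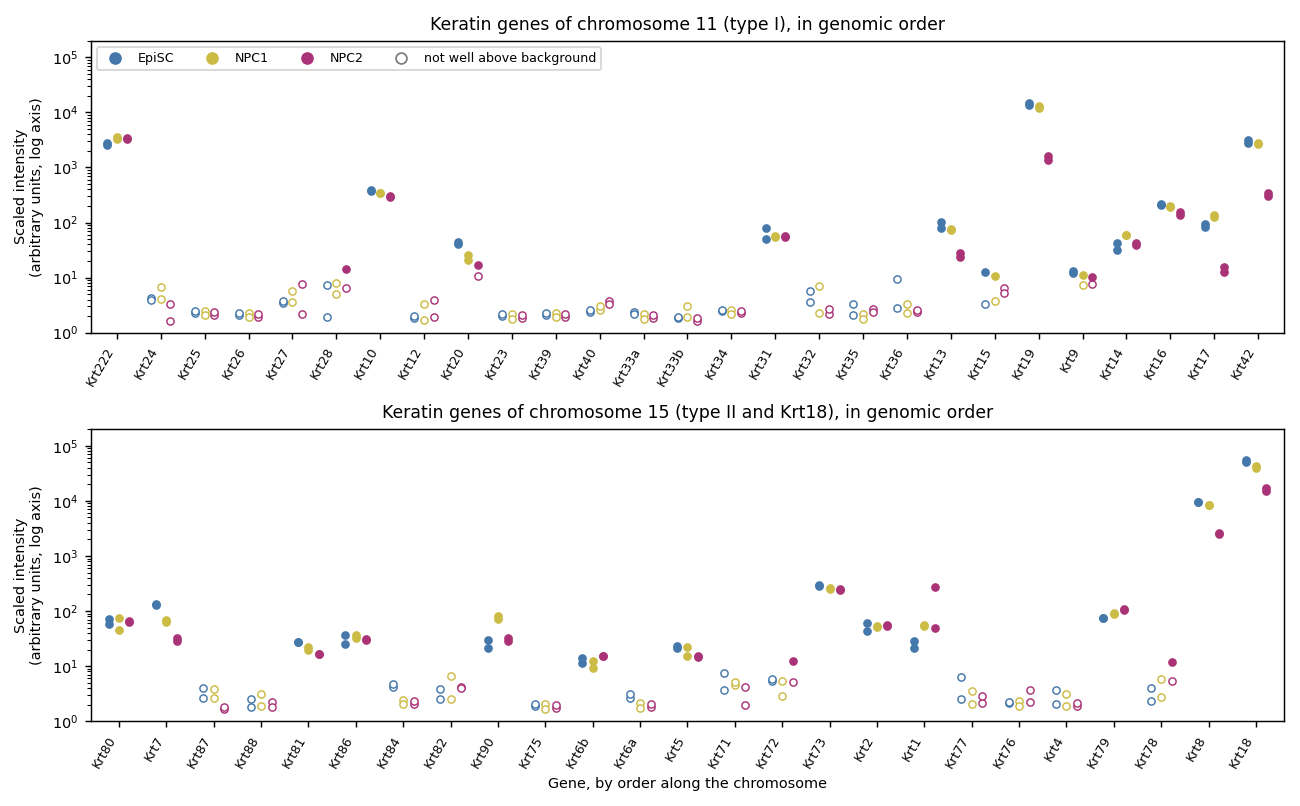
Scaled intensity (arbitrary units, log axis) of each keratin gene on each array, in the order of the genes along chromosome 11 (upper panel) and chromosome 15 (lower panel). Colours stand for the 3 groups in time order and open points were not well above background on that array. On chromosome 11, Krt24 to Krt27 show open points alone, while Krt19, Krt9, Krt14, Krt16, Krt17 and Krt42 follow each other with filled EpiSC points, and Krt8 and Krt18 are next to each other at the end of the chromosome 15 cluster.

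All type I keratins but Krt18 lie on chromosome 11, and the type II keratins and Krt18 lie on chromosome 15. Neighbours in the reference order did not all share a level or a course. Krt8 and Krt18 are neighbours and both fell. Krt17 and Krt42 are neighbours and both fell by NPC2, but in NPC1 Krt17 was called higher and Krt42 was not called. Krt19, which fell, stands between Krt15, which was well above background on 1 EpiSC and 1 NPC1 array, and Krt9, which was not called in any comparison. Of the 28 type I keratins 14, and of the 24 type II keratins 10, were well above background on no array.

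Claudins held the largest called changes among the members in both directions in NPC2 compared with EpiSC. Cldn6, a claudin of embryonic epithelia and pluripotent cells, had 2088 and 2162 in EpiSC, 1158 and 1449 in NPC1 and 175 and 147 in NPC2. It fell in NPC1 by 0.71 on the log2 scale and in NPC2 by 3.73 compared with EpiSC (adjusted p = 0.0116 and 3.29e-05), and the 3 groups did not overlap. The NPC1 call was lost without EpiSC culture B. Cldn7, widespread in simple epithelia, had 17363 and 17966 in EpiSC, 14569 and 13521 in NPC1 and 2650.3 and 2286 in NPC2, which was -2.84 ± 0.09 (adjusted p = 2.09e-05) in NPC2 and -0.33 ± 0.09 (adjusted p = 0.0312) in NPC1, where the call ended under 8 of 16 alternatives, including any 1 EpiSC or NPC1 array left out. Cldn4, a sealing claudin, had 188 and 193 in EpiSC, 135 and 132 in NPC1 and 25.1 and 17.0 in NPC2. Its change was -3.21 ± 0.19 (adjusted p = 0.000121) in NPC2 and -0.52 ± 0.19 (adjusted p = 0.0725) in NPC1, and a dimmer probe of Cldn4 gave -2.47 in NPC2 and -0.56 in NPC1. With each probe tested by itself the NPC1 fall of the dimmer probe was called (adjusted p = 0.00576). The change of the brighter probe, or of the mean of probes where that was the setting, was called under 7 of 16 alternatives. Cldn9, next to Cldn6 on chromosome 17, had 112 and 124 in EpiSC, 82.7 and 97.2 in NPC1 and 40.7 and 50.3 in NPC2 and a change of -1.38 ± 0.14 (adjusted p = 0.000717) in NPC2.

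The claudins that rose were fewer. Cldn3, next to Cldn4 on chromosome 5, had 665 and 669 in EpiSC, 1729.8 and 1720.0 in NPC1 and 975 and 775 in NPC2, so that NPC1 was the highest group. The change was 1.37 ± 0.11 (adjusted p = 0.00103) in NPC1 compared with EpiSC and -0.99 ± 0.11 (adjusted p = 0.00222) in NPC2 compared with NPC1. The remaining NPC2 excess over EpiSC of 0.38 ± 0.11 (adjusted p = 0.0317) ended as a call under 6 of 16 alternatives, including median scaling and any 1 EpiSC or NPC1 array left out. Cldn10, a pore-forming claudin, had 9.54 and 6.52 in EpiSC, 14.1 and 10.3 in NPC1 and 98.8 and 103 in NPC2. It was not well above background on either EpiSC array and was so on 1 of 2 NPC1 arrays. Taken against the lowest signal measured above background, Cldn10 was at least 10.5-fold higher in NPC2 than in EpiSC (adjusted p = 0.000159), and against NPC1 the log2 change was 3.07 ± 0.23 (adjusted p = 0.000613). Of the 13 tested claudins, 5 were lower and 3 higher in NPC2 and 3 were lower and 2 higher in NPC1, compared with EpiSC. The 38.5% called lower and 61.5% called in either direction in NPC2 lay below the 40.7% and 69% of all genes, and in NPC1 the 23.1% and 38.5% lay below 29% and 50.3%. Cldn11, named after its values were seen, was the third that rose, at 0.69 ± 0.11 (adjusted p = 0.00337). Cldn5, the claudin of blood vessels, was well above background on no array.

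Among the other tight junction genes, Marveld3, Marveld2, Ocln, F11r and Tjp1 fell in NPC2 compared with EpiSC in limma's test, and Marveld1 and Tjp3 were not called. Marveld3, a tight junction membrane protein related to occludin, had 675 and 698 in EpiSC, 504 and 452 in NPC1 and 105 and 100.4 in NPC2, at -0.52 ± 0.07 (adjusted p = 0.00379) in NPC1 and -2.74 ± 0.07 (adjusted p = 1.40e-05) in NPC2. Marveld2, or tricellulin, which seals the corners between cells, had 605 and 576 in EpiSC, 573 and 591 in NPC1 and 182 and 172 in NPC2. The NPC1 arrays overlapped those of EpiSC, at -0.02 ± 0.06 (adjusted p = 0.775), and the NPC2 change was -1.74 ± 0.06 (adjusted p = 2.20e-05). Its neighbour on chromosome 13 is Ocln, encoding occludin, which had 55.3 and 61.7 in EpiSC, 69.7 and 74.5 in NPC1 and 31.2 and 29.2 in NPC2. Ocln was 0.30 ± 0.08 (adjusted p = 0.0284) in NPC1 compared with EpiSC and -0.95 ± 0.08 (adjusted p = 0.000362) in NPC2. The NPC1 call ended under 9 of 16 alternatives, among them median scaling, quantile normalization and leaving out EpiSC culture A or either NPC1 culture. Marveld1 had 586 and 646 in EpiSC, 465 and 533 in NPC1 and 533 and 498 in NPC2, and its NPC2 change of -0.26 ± 0.09 (adjusted p = 0.0594) was not called, but became a call under 6 of 16 alternatives.

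F11r, which encodes the junctional adhesion molecule JAM-A, had 8849 and 8879 in EpiSC, 6591 and 6943 in NPC1 and 3410.0 and 3016 in NPC2. Its log2 change was -0.39 ± 0.07 (adjusted p = 0.0112) in NPC1, lost when either EpiSC culture or NPC1 culture A was left out, and -1.47 ± 0.07 (adjusted p = 7.93e-05) in NPC2. Tjp1, or ZO-1, a scaffold protein, had 4501 and 4549 in EpiSC, 4031 and 4223 in NPC1 and 3875 and 3873 in NPC2, and its NPC2 change of -0.22 ± 0.05 (adjusted p = 0.00959) was lost with quantile normalization, with the deposited value table and without EpiSC culture B. Tjp3 had 1577 and 1562 in EpiSC, 2509.6 and 2329 in NPC1 and 1620.0 and 1451 in NPC2. It was 0.62 ± 0.07 (adjusted p = 0.00271) in NPC1, and its NPC2 change of -0.03 ± 0.07 (adjusted p = 0.707) turned its sign under quantile normalization and the value table.

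Among desmosomal cadherins, 3 of 9 were tested, Dsg2, Dsc2 and Dsg1c, and all 9 lie in 1 cluster on chromosome 18. Dsg2, the desmoglein of simple epithelia and heart, had 361 and 361 in EpiSC, 219 and 204 in NPC1 and 63.5 and 53.5 in NPC2, with no overlap between the 3 groups. Its change was -0.77 ± 0.09 (adjusted p = 0.00293) in NPC1 and -2.63 ± 0.09 (adjusted p = 3.11e-05) in NPC2, and a dimmer probe of Dsg2 gave -2.91 in NPC2. Dsc2, the matching desmocollin, had 173 and 172 in EpiSC, 222 and 189.7 in NPC1 and 107 and 106 in NPC2. It was -0.69 ± 0.08 (adjusted p = 0.00142) in NPC2 and 0.25 ± 0.08 (adjusted p = 0.0582) in NPC1. Dsc3, known from stratified epithelia, was well above background on 1 EpiSC array alone, at 10.7.

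In the plaque, 6 of 7 tested genes (85.7%) fell in NPC2 compared with EpiSC in limma's test. Of all genes tested, 40.7% were called lower and 28.3% higher. The count of rises in the plaque was 0, also at an unadjusted p under 0.05. Dsp, or desmoplakin, which anchors keratin filaments, had 1089 and 1142 in EpiSC, 785 and 726 in NPC1 and 328 and 343 in NPC2. This probe has 9 spots per array, and its change was -0.56 ± 0.06 (adjusted p = 0.0022) in NPC1 and -1.73 ± 0.06 (adjusted p = 3.10e-05) in NPC2. A dimmer Dsp probe had 16.2 and 16.5 in EpiSC, 17.1 and 46.3 in NPC1 and 2.13 and 3.35, not well above background, in NPC2, so that culture B of NPC1 stood apart on it, and the mean of the probes gave an NPC1 change of 0.11 (adjusted p = 0.735). Pkp2, the plakophilin of simple epithelia and heart, had 8964 and 9465 in EpiSC, 6393 and 6781 in NPC1 and 4091 and 3682 in NPC2, at -0.48 ± 0.07 (adjusted p = 0.00563) in NPC1 and -1.25 ± 0.07 (adjusted p = 0.000127) in NPC2.

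Ppl, or periplakin, which links filaments to the plaque, had 227 and 241 in EpiSC, 264 and 245 in NPC1 and 88.6 and 85.7 in NPC2. It was 0.12 ± 0.06 (adjusted p = 0.167) in NPC1 and -1.43 ± 0.06 (adjusted p = 5.09e-05) in NPC2. Evpl, or envoplakin, its partner in the cornified envelope, had 215 and 209.5 in EpiSC, 201 and 196 in NPC1 and 130.2 and 113 in NPC2 and a change of -0.81 ± 0.08 (adjusted p = 0.000685) in NPC2. Pkp4, a plakophilin relative also found at adherens junctions, had 1038 and 1023 in EpiSC, 855 and 872 in NPC1 and 767 and 771 in NPC2 and a change of -0.42 ± 0.04 (adjusted p = 0.000731) in NPC2. Pkp3, present in most desmosomes, was not called on either day, with 4215 and 4173 in EpiSC, 4210.0 and 4349 in NPC1 and 4149.7 and 4437 in NPC2. Its log2 change of 0.03 ± 0.05 in NPC2 was smaller than the median standard error of 0.0678 over all genes. It turned its sign under median scaling and was called higher with quantile normalization and with the value table. Pkp1, a plakophilin of stratified epithelia, was well above background on 1 NPC1 array alone.

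Jup, encoding plakoglobin, which serves desmosomes and adherens junctions, had 82.8 and 78.9 in EpiSC, 73.3 and 248 in NPC1 and 27.0 and 21.5 in NPC2. Culture B of NPC1 was 3.38-fold above culture A, the gap ranked 34 of 14772 genes between NPC1 duplicates. Both NPC2 arrays were below all others, and the change was -1.75 ± 0.57 (adjusted p = 0.0437) against EpiSC and -2.48 ± 0.57 (adjusted p = 0.0211) against NPC1. The call against EpiSC ended under 9 of 16 alternatives. It held when either NPC1 array was left out, with an unchanged -1.75 and an adjusted p of 0.00113. Against NPC1 the change was -1.60 without culture B of NPC1 and -3.36 without culture A, and the call ended without NPC2 culture A (adjusted p = 0.0687) or B (adjusted p = 0.0924).

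**Figure D3:**
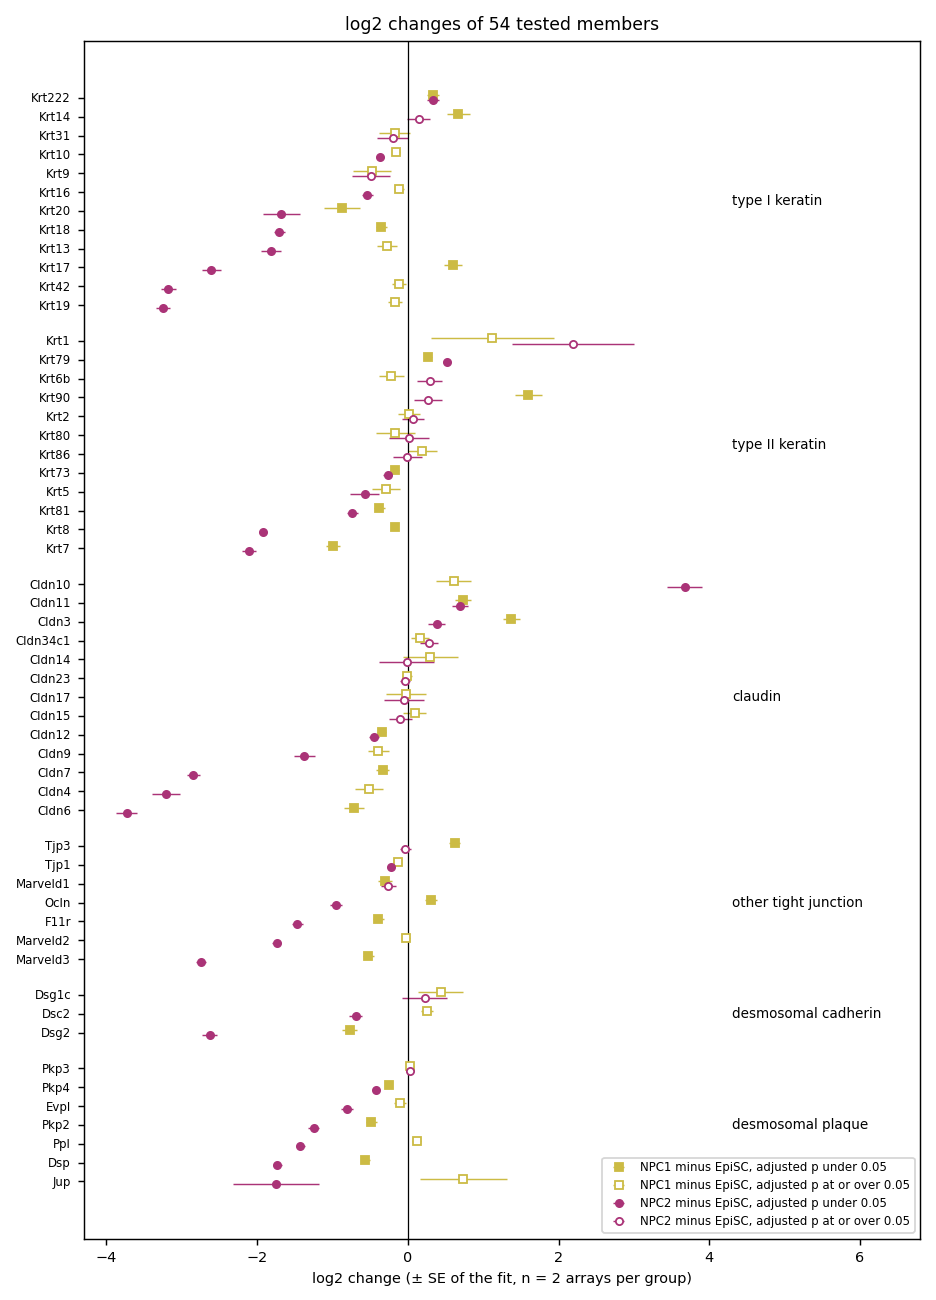
The log2 change of 54 of the 55 tested members in NPC1 (squares) and NPC2 (circles) compared with EpiSC, grouped by class, with bars of 1 standard error of the fit (n = 2 arrays per group). Filled symbols have an adjusted p under 0.05. Most filled circles lie left of 0 in each class, and Cldn10 lies farthest right.

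Of the 53 members that were not tested, 47 were well above background on no array, with scaled intensities of 1.64 to 9.61. They were 24 keratins, 18 claudins and 5 desmosomal cadherins. The other 6 were Krt15, Krt28, Krt72, Krt78, Dsc3 and Pkp1, each above background on 1 or 2 arrays and on both arrays of no group. The keratin families hold genes of similar sequence, and whether a probe also catches a related transcript was not tested. For 6 members a second, dimmer probe was tested too. Its log2 change in NPC2 compared with EpiSC was -3.72 for Marveld3 and -0.48 for Ocln, against -2.74 and -0.95 for the brighter probe. The dimmer Ocln probe was well above background on 3 of 6 arrays. In limma's test of each probe by itself its NPC2 change was not called (adjusted p = 0.0892). Krt10, named after its values were seen, differed most, with -1.79 for the dimmer probe and -0.37 for the brighter. Krt13, Krt222, Krt2 and Krt6b also had a second probe, which was well above background on no array and was not tested.

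Related genes moved in the same period, and their lists were tested gene by gene. Of 29 other junction and polarity genes, 17 fell and 7 rose in NPC2 compared with EpiSC, with a median log2 change of -0.61. Of all genes tested, 40.7% were called lower and 28.3% higher in that comparison. Cdh1, which encodes E-cadherin, had 7205 and 7443 in EpiSC, 6405 and 6289 in NPC1 and 1417 and 1308 in NPC2, at -2.43 ± 0.06 (adjusted p = 1.26e-05) in NPC2. Crb3, an apical polarity protein, had 363 and 394 in EpiSC, 375 and 349 in NPC1 and 35.1 and 46.0 in NPC2, at -3.23 ± 0.14 (adjusted p = 5.12e-05). Ildr1, a tricellular junction protein, was at least 9.34-fold lower in NPC2, with 2.11 and 2.41 in NPC2, not well above background, against 78.2 and 84.4 in EpiSC (adjusted p = 6.70e-06). Jam2, a junctional adhesion molecule, was at least 21.2-fold higher in NPC2, with 202 and 196 in NPC2 against 4.95 and 6.02 in EpiSC, where it was not well above background (adjusted p = 1.02e-05).

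All 20 genes of an epithelial programme list fell in NPC2 compared with EpiSC, with a median of -2.05. The list includes splicing and transcription factors of epithelia. In NPC1, 11 of its genes fell and 1 rose. Of all genes tested, 40.7% were called lower in NPC2, and 29% lower and 21.3% higher in NPC1. Mal2, an apical transport protein, had 747 and 789 in EpiSC, 399 and 393 in NPC1 and 30.2 and 32.1 in NPC2, at -4.62 ± 0.06 (adjusted p = 5.86e-06) in NPC2. Esrp2, an epithelial splicing factor, had 171 and 176 in EpiSC, 64.9 and 63.2 in NPC1 and 18.3 and 15.6 in NPC2, at -3.36 ± 0.09 (adjusted p = 1.40e-05). Ovol1, an epithelial transcription factor, was at least 6.33-fold lower in NPC2, with 2.05 and 5.06 in NPC2, not well above background, against 53.9 and 56.4 in EpiSC (adjusted p = 0.000795). Of this list Grhl3 also stands among the surface ectoderm markers.

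Of 8 genes for repressors of epithelial genes, 4 rose and 2 fell in NPC2 compared with EpiSC, against 28.3% and 40.7% of all genes. Zeb2 had 118 and 119.8 in EpiSC, 369 and 399.9 in NPC1 and 1219 and 1246 in NPC2, at 3.37 ± 0.06 (adjusted p = 7.36e-06) in NPC2. Zeb1 had 199.6 and 198 in EpiSC, 322 and 312 in NPC1 and 668 and 696 in NPC2, at 1.78 ± 0.05 (adjusted p = 1.46e-05). Snai3 went the other way, with 206 and 214 in EpiSC, 80.5 and 96.1 in NPC1 and 12.1 and 9.14 in NPC2, at -4.32 ± 0.16 (adjusted p = 3.28e-05), and was well above background on 1 of 2 NPC2 arrays. Twist2 had 167 and 168 in EpiSC, 53.6 and 51.8 in NPC1 and 60.3 and 59.1 in NPC2, at -1.49 ± 0.04 (adjusted p = 1.94e-05).

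Of 12 other intermediate filament genes, 7 fell and 3 rose in NPC2 compared with EpiSC, against 40.7% and 28.3% of all genes. Nefl, a neurofilament chain, had 21668 and 22598 in EpiSC, 3019 and 2896 in NPC1 and 2058 and 1764 in NPC2. Most of its fall stood already in NPC1, at -2.90 ± 0.09 (adjusted p = 9.72e-05) against EpiSC. Nes, the nestin of neural progenitors, had 11081 and 11392 in EpiSC, 11657 and 10524 in NPC1 and 2774 and 2717 in NPC2, so that NPC1 arrays overlapped those of EpiSC and NPC2 was -2.03 ± 0.06 (adjusted p = 2.21e-05). Nefm, another neurofilament chain, had 2336 and 2369 in EpiSC, 1663 and 1539.9 in NPC1 and 670.1 and 690.0 in NPC2. Lmna, which encodes lamins A and C, had 2931 and 3233 in EpiSC, 2750.2 and 2394 in NPC1 and 1112 and 1099.6 in NPC2.

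**Figure D4:**
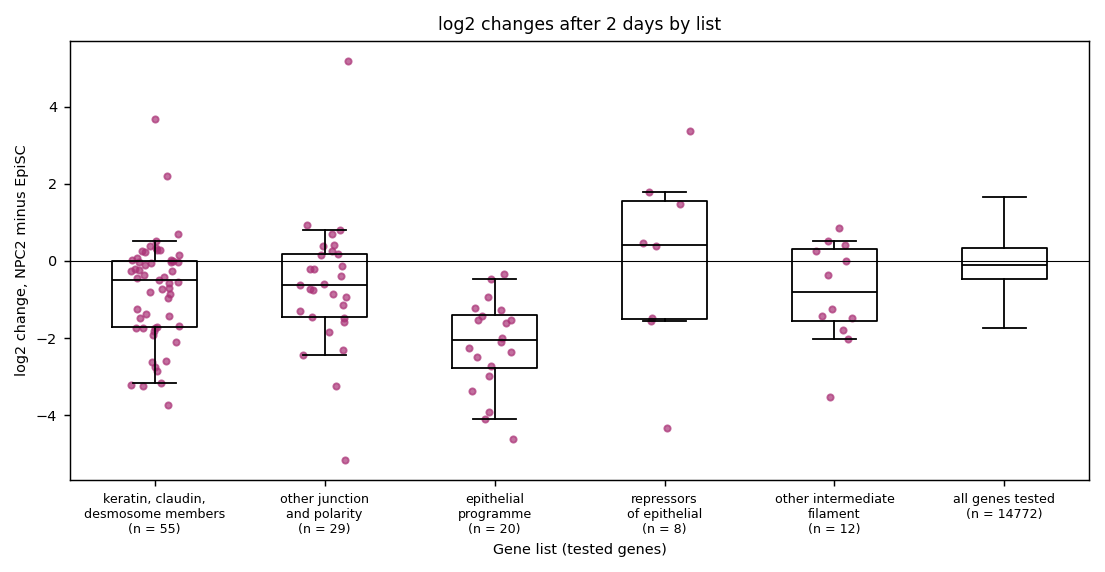
The log2 change in NPC2 compared with EpiSC of each tested gene (points) in the members and 4 other lists, beside all 14772 genes tested. Boxes span the quartiles with the median as a line, and whiskers reach from percentile 5 to percentile 95. The epithelial programme list lies wholly below 0, and the members' median of -0.49 lies below that of all genes, -0.10.

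Markers of other cell types were read beside these results, and their part in them was not tested. Of all genes tested, 40.7% were called lower and 28.3% higher in NPC2 compared with EpiSC. Of 8 surface ectoderm markers other than keratins, 3 rose and 3 fell in NPC2 compared with EpiSC, and their summed scaled intensity was 3635 and 3467 in EpiSC, 3657 and 3241 in NPC1 and 3859 and 3801 in NPC2. Of 6 tested trophoblast markers of 8, 5 fell in NPC2, with sums of 12939 and 12945 in EpiSC, 13171 and 11569.5 in NPC1 and 11748 and 10308 in NPC2. These sums rest mostly on Gcm1, which was not called, at 9737 and 9730.0 in EpiSC, 11038 and 9379 in NPC1 and 10836 and 9370.5 in NPC2. Eomes had 1515 and 1455 in EpiSC, 377 and 412 in NPC1 and 81.0 and 94.0 in NPC2, and Plac1 and Hand1 were well above background in EpiSC alone. All 6 tested endoderm markers of 9 fell, with sums of 2529 and 2444 in EpiSC, 393 and 395 in NPC1 and 747 and 795 in NPC2. Of 8 tested feeder fibroblast markers of 9, 5 rose and 1 fell, with sums of 2976 and 3117 in EpiSC, 4126 and 3980.2 in NPC1 and 5169 and 4927 in NPC2. Of the endothelial list 2 of 6 genes were tested, and 0 were called by limma, also at an unadjusted p under 0.05. Cdx2, Ttr, Apoa1, Lum, Tie1 and Emcn were well above background on no array, Elf5 was so on 1 EpiSC array, and Gata4 on 1 EpiSC and 1 NPC2 array.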

How the data were processed

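Total RNA of 6 cultures (2 per group) was labelled with Cy3 from 100 ng and hybridised to Agilent 1-colour arrays on 1 slide, per the labels' protocols and file headers. Per the file headers, the authors' deposited scanner files were made with Feature Extraction 10.10.1.1, which gave each spot a background-subtracted linear intensity with no scaling across arrays. In the authors' deposited value table these intensities stand multiplied by an array's constant, 2.10 to 2.41, and where it comes from is not stated in the labels or headers.

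Control and outlier spots were left out and spots of a probe averaged. RefSeq accessions were named through the GRCm38.p6 gene table, used for names and gene order, as the files' build is mm9. Of 55646 probes 26744 had 1 symbol, 0 several and 28902 none. The value tested was log2 intensity minus the array's 75th percentile, with 1 probe per gene (highest mean among those standing well above background in both cultures of a group). All 14772 genes were fitted with limma 3.58.1 in R 4.3.3 (lmFit, eBayes, 1 fit of 6 arrays, 3 residual degrees of freedom), two-sided, with Benjamini-Hochberg adjustment. The precision of a value is limited by the 2 arrays per group. The fit was checked on simulated data with known changes.

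Named members were those called with at least a 2-fold change in any comparison, and 32 named always; of each related list the 4 called genes with the largest change were named. Of these, 1 member and 1 listed gene are not reported here. A member at or below background in a group was given as a bound against the lowest signal well above background. Members, lists and named genes were chosen with earlier results of these data known. Alternatives were 2 other scalings, normexp background correction (offset 50), the value table, 2 filters, mean of probes, each probe, leaving out each array, a replicate block, and trended robust eBayes. Columns of no sample numbered 0.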

Additional observations from a re-analysis of the deposited data

Results flagged for a closer look

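Of the member probes that took no part in the tests, 5 were well above background on 1 NPC array and on no EpiSC array. They were picked by that rule, which left out Dsc3 and Krt15 with their signals on an EpiSC array. How often other untested probes of the array do the same was not counted. A second Krt5 probe had a scaled intensity of 141 on the NPC1 B array, against 2.74 on the NPC1 A array and at most 2.75 in EpiSC. Pkp1 had 13.6 on the same NPC1 B array, against 10.3 on NPC1 A and at most 5.46 in EpiSC. On the NPC2 B array, Krt28 had 14.1 and Krt78 12.1, against 6.36 and 5.37 on NPC2 A and at most 7.47 and 4.0 in EpiSC. On the NPC2 A array Krt72 had 12.6, against 5.07 on NPC2 B and at most 5.86 in EpiSC. None of these probes was well above background on both arrays of a group.

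The NPC1 B array was also the high one for Jup and a dimmer Dsp probe, and the NPC2 A array for Krt1, whose duplicates differed 5.65-fold, ranked 5 of 14772 genes between NPC2 duplicates. The summed scaled intensity of the surface ectoderm markers other than keratins was 3241 on NPC1 B and 3657 on NPC1 A. The cause was not tested.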

How the results depend on the processing

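The falls after 2 days kept their number: 27 to 33 members were lower in NPC2 than in EpiSC over the 16 alternatives, against 32. The fewer calls of day 1 and the rises moved. Taking the deposited values, 9 members were lower in NPC1 than in EpiSC, against 16, and 8 were higher in NPC2 than in EpiSC, against 5. With normexp, and with trended robust eBayes, 1 member was higher in NPC2 than in NPC1, against 2. Leaving out 1 array gave 7 to 14 members lower in NPC1 than in EpiSC and 4880 to 6721 genes called in that comparison, against 7434. The members lower in NPC1 numbered 9 without EpiSC A, 7 without EpiSC B and 10 without NPC1 A, and the genes called 4880 without EpiSC B. The Dsp change in NPC1 reversed to 0.11 (adjusted p = 0.735) with the mean of its probes, 1 of which is high on the NPC1 B array. The cause of the other shifts was not tested, except that a left-out array leaves fewer samples and the lone array is then assumed to vary like the other groups.

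The letters A and B pair nothing in the labels, and same-letter deviations correlated at 0.01, 0.01 and -0.04, so the replicate block is given here alone: with it 13 members were lower and 9 higher in NPC1, 30 and 6 in NPC2 compared with EpiSC, and 31 and 2 in NPC2 compared with NPC1. Of 1674 values for single genes under the alternatives, 1488 kept direction and side of the threshold, 120 lost and 43 gained a call, 22 without a call moved and 1 reversed. Dim probes limit what can be seen: 47 members were well above background on no array.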
